A study of Mus musculus with 6 samples.

Results

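The Myc, Max and Mxd network is the group of 9 mouse transcription factor genes Myc, Mycn, Mycl, Max, Mxd1, Mxd3, Mxd4, Mxi1 and Mnt. Its members were taken as every non-control probe set that the platform annotation pairs with exactly 1 of these symbols. This gave 22 probe sets for 9 genes, out of 34945 probe sets with 1 symbol for 18193 genes on the array. Probe sets were matched by name, and the list of genes was drawn up with earlier results of these data known. Myc and Max had 1 probe set each, Mxi1 and Mnt 2 each, Mycn, Mycl, Mxd1 and Mxd3 3 each, and Mxd4 4.

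RNA came from bone marrow cells of C57BL/6J mice in the c-Kit+Sca-1+Lin- (KSL) gate, which holds blood stem cells and early progenitors. All 6 cultures stood on human umbilical vein endothelial cells for 7 days in serum-free medium carrying a cocktail of 5 mouse cytokine types. Cells still in the KSL gate were then sorted again and hybridised to Affymetrix arrays. The control group received PBS (3 biological replicates) and the other group mD1R (3 biological replicates). The labels leave the name mD1R unexplained. From general knowledge of the study, and not from the files, it is taken to be a recombinant protein with the receptor-binding domain of Delta-like 1, a Notch ligand. The comparison asks how transcripts of cells kept in the gate differed between cultures with mD1R and with PBS.

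Max is the shared partner of the network. Myc, Mycn and Mycl pair with Max to activate genes of growth, ribosome production and cell division at the E-box sequence CACGTG. Mxd1, Mxd3, Mxd4, Mxi1 and Mnt pair with Max at the same sequence and recruit Sin3 corepressors with histone deacetylases. In blood, the balance of Myc and Mxd proteins is known to shift as cells leave the cycle and differentiate, and Myc and Mycn act in stem cell maintenance. Myc is also a known target of Notch in lymphoid cells.

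Values are log2 signals as deposited, on which a difference of 1 is a 2-fold change. Array medians lay between 6.08 and 6.43. Because each probe set has its own binding strength, changes were read between arrays, and levels of different probe sets were not read as transcript amounts. Mean signals of probe sets were ranked to set the filter and to pick the brightest probe set of a gene. A probe set entered the test if its mean over the 6 arrays reached 5.27, the 40th percentile. The test was limma's moderated test over all 27022 probe sets that did, with a threshold of 0.05 on the Benjamini-Hochberg adjusted p. Of the 22 member probe sets 17 entered, covering 8 genes. All 3 probe sets of Mycl and 1 each of Mycn and Mnt lay lower and are given as values.

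Mxd3 was the only member gene past the threshold, and all 3 of its probe sets fell with mD1R, with log2 changes of -1.81, -1.87 and -2.85. Max and Mxd1 were lower in value, with differences of -1.24 for Max and from -1.58 to -1.99 for Mxd1, and did not pass. Mxd4 and Mxi1 had smaller negative differences in most of their probe sets. Myc, the kept Mycn probe sets and Mnt were higher in value and did not pass. In counts, 3 of 17 kept probe sets were called lower (17.6%, all of 1 gene), where 6.5% of all tested probe sets were called lower. None was called higher by limma, where 6.13% of all were, and 1 higher and 10 lower had an unadjusted p under 0.05. The groups did not overlap in 8 probe sets that were lower and 1 that was higher, against 18.6% and 17.3% of all tested (36.0% in either direction). The median change of the 17 was -0.78, and that of all tested probe sets 0.0046. Probe sets of 1 gene measure RNA of the same gene and are not independent.

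**Figure D1:**
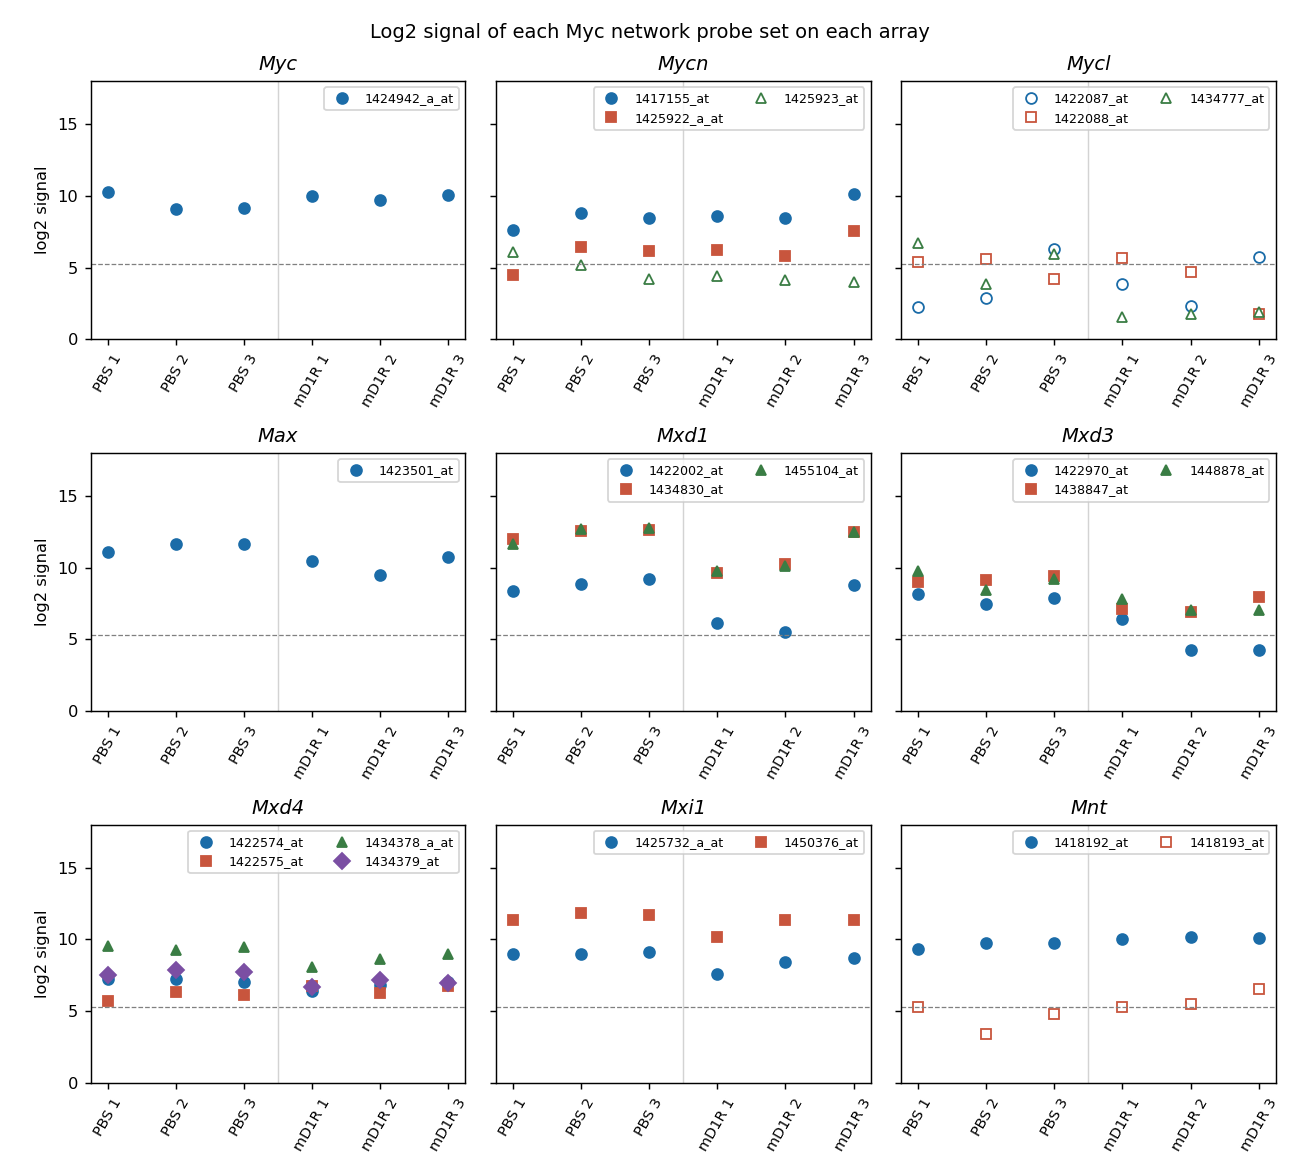
Log2 signal (vertical axis) of the 22 member probe sets on each of the 6 arrays (horizontal axis), 1 panel per gene and 1 marker shape per probe set. Open markers are probe sets below the filter, whose level of 5.27 is the dashed line. The 3 Mxd3 probe sets are lower on every mD1R array, whereas Mxd1 is low on mD1R arrays 1 and 2 and at the PBS level on array 3.

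**Figure D2:**
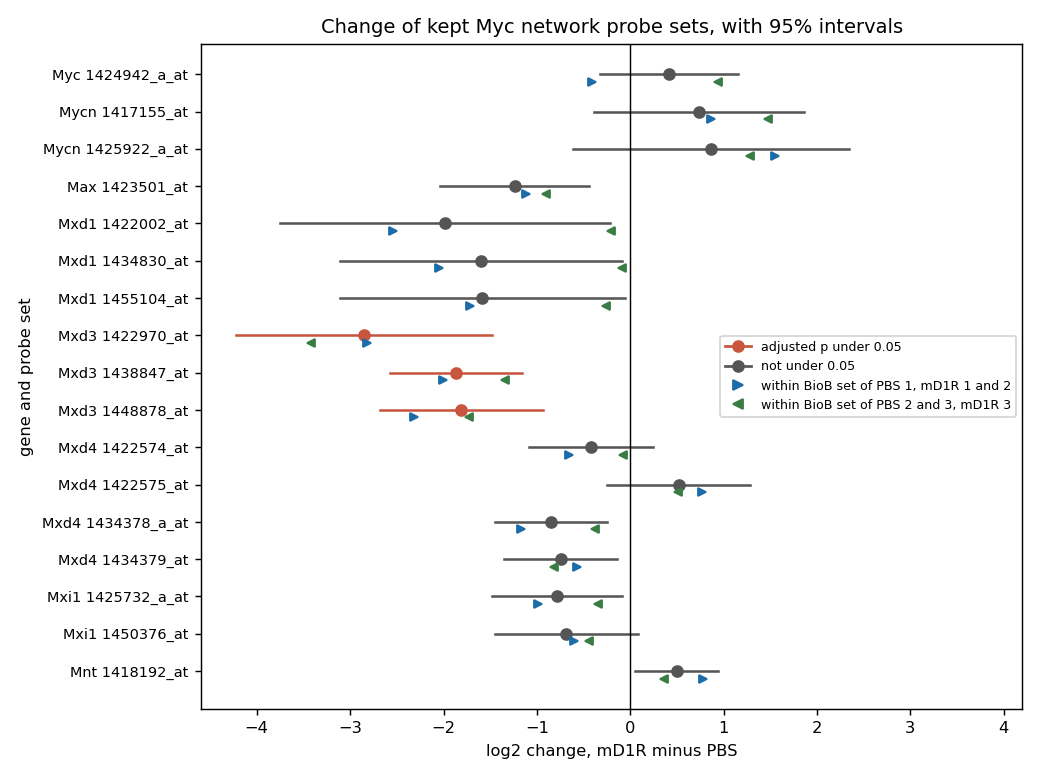
Log2 change from PBS to mD1R (horizontal axis) of the 17 kept member probe sets (vertical axis), with points for the estimate and bars for limma's 95% interval. Triangles give the difference within each of the 2 sets of arrays that the BioB spike-in control separates. The 3 Mxd3 intervals lie between -4.23 and -0.94, and the Myc interval spans 0.

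Mxd3 encodes a Max partner and repressor that is known to be expressed in dividing cells, in contrast to the other Mxd genes, which rise on differentiation. Probe set 1438847_at had log2 signals of 9.03, 9.15 and 9.42 with PBS and of 7.14, 6.91 and 7.95 with mD1R. The groups did not overlap. The fall was 1.87 ± 0.31 (SE, n = 3 per group), or 3.64-fold, with an adjusted p of 0.0136. Probe set 1448878_at read 9.73, 8.43 and 9.19 with PBS and 7.82, 7.02 and 7.08 with mD1R. It fell by 1.81 ± 0.38 (adjusted p = 0.0234). Probe set 1422970_at read 8.16, 7.48 and 7.86 with PBS and 6.41, 4.27 and 4.25 with mD1R. It fell by 2.85 ± 0.59 (adjusted p = 0.0234), and its mD1R values on arrays 2 and 3 lay below the filter level, where the size of a change is imprecise. In bulk RNA, fewer cells of a type and less RNA per cell cannot be told apart.

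The Mxd3 call depended on single arrays, although its direction did not. Each Mxd3 probe set was lower in all settings tried. None of the 3 passed without PBS replicate 3 (adjusted p between 0.0716 and 0.0985) or without mD1R replicate 2 (between 0.050 and 0.0843). Without PBS replicate 1 probe sets 1422970_at and 1448878_at did not pass (0.0768 and 0.0665), and without PBS replicate 2 probe sets 1422970_at and 1438847_at did not (0.0684 and 0.0534). Without PBS replicate 3, 0 of the 27022 probe sets passed in limma, and 5853 had an unadjusted p under 0.05.

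Proliferation genes were lower with mD1R, as Mxd3 was. Of 9 measured markers of dividing cells 8 fell and 0 rose, with a median change of -1.79. Their mean log2 signal was 12.83, 12.47 and 12.55 with PBS and 10.76, 10.63 and 11.33 with mD1R. Among the mD1R arrays this mean was highest on array 3, as was Mxd3 probe set 1438847_at, whereas 1448878_at and 1422970_at were highest on array 1. The summed signal of the markers (log2 of the sum) ranged from 15.88 to 16.19 with PBS and from 14.40 to 14.98 with mD1R, and 0 of the 9 were at 0. Mki67, the antigen of cycling cells, fell by 1.79 ± 0.27 (adjusted p = 0.0118). The part of these cells in the Mxd3 result was not tested. The genes whose profile over the 6 arrays was nearest to that of Mxd3 probe set 1438847_at, among 12319 others, were Btnl9, Nin and Galnt3. Their root mean square differences from its centred log2 values were 0.083, 0.116 and 0.117. All 3 passed as lower, with changes of -1.98, -2.0 and -1.95. They were chosen by likeness to a profile that fell, so these falls follow from the choice.

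Mxd1, a repressor that rises as granulocytes mature, separated the mD1R arrays. Probe set 1434830_at read 11.98, 12.55 and 12.62 with PBS. With mD1R it read 9.61 and 10.25 on arrays 1 and 2 and 12.50 on array 3, so array 3 lay within the PBS range. Probe set 1455104_at behaved alike, with 11.66, 12.66 and 12.76 with PBS and 9.80, 10.08 and 12.45 with mD1R. Probe set 1422002_at read 8.37, 8.85 and 9.21 with PBS and 6.12, 5.53 and 8.82 with mD1R. Over all arrays the differences were -1.60 ± 0.65, -1.58 ± 0.66 and -1.99 ± 0.77 (SE), with adjusted p of 0.148, 0.156 and 0.128. Without mD1R replicate 3 they were -2.46, -2.42 and -2.98, and all 3 passed (adjusted p = 0.00157, 0.00342 and 0.00166). They also passed with array weights.

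Genes of neutrophil granules differed between the same arrays. The mean log2 signal of 11 neutrophil markers was 14.32, 14.35 and 14.45 with PBS and 8.72, 11.33 and 14.02 on mD1R arrays 1, 2 and 3. Their summed signal ranged from 17.95 to 18.24 with PBS and from 15.04 to 18.18 with mD1R, and 0 of the 11 were at 0. Of these markers 2 fell and 0 rose, with a median change of -3.70. Mpo, the granule peroxidase, read 14.68, 14.35 and 14.36 with PBS and 7.39, 9.77 and 13.93 with mD1R. On the third mD1R array Mxd1, Mpo and the mean of the markers stood near the PBS level. The 2 markers that fell did not, since Fcnb read 10.30 there against 12.84 to 13.14 with PBS, and Mmp9 12.63 against 13.62 to 14.43. The cells had been sorted in the Lin- gate, which is meant to leave out mature granulocytes. The part of neutrophil cells or their RNA in the Mxd1 values was not tested.

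**Figure D3:**
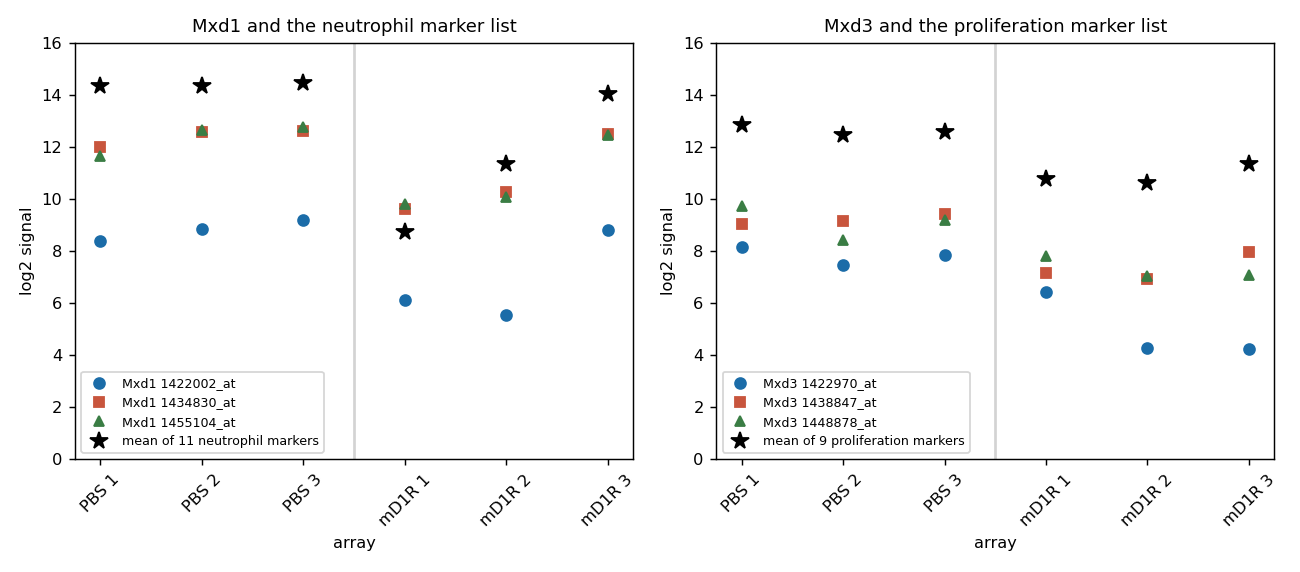
Log2 signal (vertical axis) on each of the 6 arrays (horizontal axis) of Mxd1 with the mean of 11 neutrophil markers (left) and of Mxd3 with the mean of 9 proliferation markers (right, stars for the means). Array 3 of mD1R stands near the PBS arrays in the left panel, at 14.02 for the mean of the markers, and below them in the right panel, at 11.33.

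Max, the partner through which all other members bind DNA, had 1 probe set, 1423501_at. It read 11.09, 11.67 and 11.67 with PBS and 10.48, 9.47 and 10.77 with mD1R. Every mD1R array was below every PBS array. The difference was -1.24 ± 0.35 (SE), with a 95% interval of -2.03 to -0.44 and an adjusted p of 0.0538, just outside the threshold. The call turned on the setting. Max passed without mD1R replicate 3 (-1.50, adjusted p = 0.0186), with array weights (-1.60, 0.00612), with the filter at the 60th percentile (-1.24, 0.0458) and with a pseudocount of 16 (-1.22, 0.0494). It also passed with the replicate number as a block (-1.24, 0.0394).

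Mxd4 is a repressor linked to quiescent and differentiated cells, and its 4 probe sets disagreed. Probe set 1434378_a_at read 9.51, 9.23 and 9.47 with PBS and 8.08, 8.61 and 8.97 with mD1R, a difference of -0.85 ± 0.26 (adjusted p = 0.0703). Probe set 1434379_at read 7.50, 7.85 and 7.71 with PBS and 6.67, 7.19 and 6.96 with mD1R, a difference of -0.75 ± 0.26 (0.102). The groups did not overlap in either. Probe set 1422574_at read 7.27, 7.21 and 7.07 with PBS and 6.38, 6.84 and 7.06 with mD1R, and differed by -0.42 ± 0.29 (interval -1.09 to 0.24). Its groups did not overlap either, by the narrow margin of 7.06 against 7.07. Probe set 1422575_at went the other way. It read 5.74, 6.37 and 6.09 with PBS and 6.76, 6.25 and 6.75 with mD1R, an overlap, and differed by 0.52 ± 0.33 (interval -0.25 to 1.29). Probe set 1434378_a_at passed without mD1R replicate 3 (-1.06, adjusted p = 0.0201) and with array weights (-0.79, 0.0318), and no other Mxd4 probe set passed in any setting.

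Mxi1 encodes a further Mxd repressor, also called Mxd2. Its probe set 1425732_a_at read 9.02, 8.99 and 9.12 with PBS and 7.61, 8.45 and 8.72 with mD1R. The groups did not overlap, and the difference was -0.78 ± 0.30 (adjusted p = 0.127). It passed without mD1R replicate 3 (-1.01, adjusted p = 0.0447). Probe set 1450376_at read 11.37, 11.82 and 11.72 with PBS and 10.17, 11.37 and 11.33 with mD1R, and array 2 of mD1R reached the lowest PBS value. Its difference was -0.68 ± 0.33 (interval -1.45 to 0.08).

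Mnt, a widely expressed repressor and the main antagonist of Myc in many tissues, was the one repressor that was higher in value in both its probe sets. Probe set 1418192_at read 9.33, 9.76 and 9.73 with PBS and 10.04, 10.16 and 10.11 with mD1R. The groups did not overlap, yet the difference was 0.50 ± 0.19 (interval 0.05 to 0.94) and did not pass (adjusted p = 0.128). The second probe set, 1418193_at, lay below the filter at 5.28, 3.41 and 4.78 with PBS and 5.32, 5.53 and 6.53 with mD1R.

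Myc itself did not separate the groups. Its probe set 1424942_a_at read 10.24, 9.11 and 9.14 with PBS and 9.96, 9.71 and 10.07 with mD1R. The highest value was that of PBS replicate 1, so the groups overlapped. The difference was 0.41 ± 0.32 (SE, adjusted p = 0.426), and its 95% interval of -0.32 to 1.15 allows a fall of 0.32 as well as a rise of 1.15. It was higher by 0.79 without PBS replicate 1 (adjusted p = 0.0717) and by 0.22 and 0.24 without PBS replicates 2 and 3. The nearest profiles to that of Myc among 12319 genes were those of Trim65, Mast4 and Cenpv. Their root mean square differences were 0.099, 0.106 and 0.109. None of them passed, and being chosen by likeness to Myc they add no separate result.

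The BioB spike-in, set against the mean of cre, BioD and BioC, separates the arrays into 2 sets that the labels do not mention. PBS replicate 1 and mD1R replicates 1 and 2 form one set, and PBS replicates 2 and 3 and mD1R replicate 3 the other. Within them Myc differed by -0.41 and 0.94, so its direction was not shared. Max differed by -1.11 and -0.90, and the Mxd3 probe sets by -2.82, -2.0 and -2.31 in the first set and by -3.42, -1.34 and -1.73 in the second. The Mxd1 probe sets differed by -2.54, -2.05 and -1.72 in the first set and by -0.21, -0.08 and -0.26 in the second. Each of these differences rests on a single array of 1 group.

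Mycn, which can stand in for Myc in blood stem cells, had 2 kept probe sets with higher values on mD1R array 3. Probe set 1417155_at read 7.65, 8.83 and 8.46 with PBS and 8.58, 8.45 and 10.12 with mD1R. It differed by 0.74 ± 0.49 (adjusted p = 0.357). Probe set 1425922_a_at read 4.47, 6.40 and 6.14 with PBS and 6.24, 5.81 and 7.56 with mD1R. It differed by 0.86 ± 0.64 (0.410). In both, PBS replicate 1 was lowest and mD1R replicate 3 highest, and the groups overlapped. With the BioB set as a block the differences were 1.17 ± 0.24 and 1.42 ± 0.35 (SE), and both passed (adjusted p = 0.0245 and 0.0429). Within the sets they were 0.86 and 1.48 for the first probe set and 1.56 and 1.29 for the second. The third probe set, 1425923_at, lay below the filter and went the other way, at 6.10, 5.15 and 4.24 with PBS and 4.42, 4.15 and 3.98 with mD1R.

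Mycl, the member known from lung and dendritic cells, gave low and scattered signals. Probe set 1434777_at read 6.71, 3.86 and 5.96 with PBS and 1.53, 1.77 and 1.90 with mD1R, so the groups did not overlap. Tested with no filter over 45037 probe sets, it differed by -3.78 ± 0.86 (SE, adjusted p = 0.0379). The other probe sets overlapped between groups. Probe set 1422087_at read 2.28, 2.91 and 6.28 with PBS and 3.87, 2.33 and 5.75 with mD1R. Probe set 1422088_at read 5.37, 5.61 and 4.22 with PBS and 5.67, 4.72 and 1.79 with mD1R. The probe sets of Mycl therefore gave no shared direction at this signal.

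**Figure D4:**
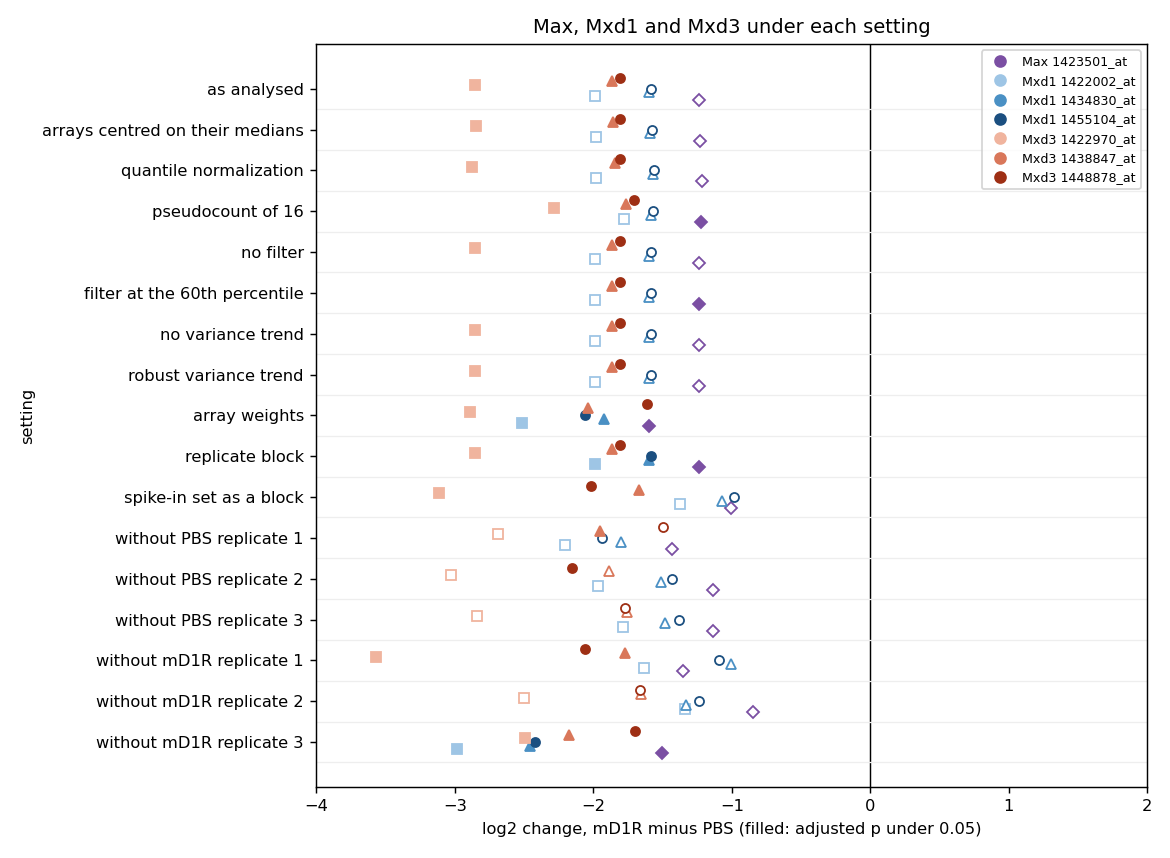
Log2 change from PBS to mD1R (horizontal axis) of the Max, Mxd1 and Mxd3 probe sets under the settings tried (vertical axis), with filled markers for an adjusted p under 0.05. All changes are below 0, the 3 Mxd1 probe sets pass without mD1R replicate 3, and no probe set passes without PBS replicate 3.

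Sequence upstream of the start was searched in the RefSeq promoter table (GRCm38.p6), which matched 8 of the 9 genes with 10 windows. Myc had no window and was not searched. The windows were the 250 bases before each start, and both strands were read. The E-box CACGTG was found in 2 of the 10 windows, those of Mxd4 and Mnt, and in 6.02% of all 32851 windows. The E2F-type motif TTTNNCGC was found in 1 of the 10 windows, that of Mycn, and in 4.28% of all windows. The RBPJ-type motif GTGGGAA, of the DNA-binding partner of Notch, was found in 0 of the 10 windows, which leave out Myc, and in 5.42% of all windows. The motif matches did not overlap each other between kinds. The stretches below show these matches in capitals, and the stretch of Mxd3, the gene that passed, beside them. They lie at chr13:55329901-55329981 (Mxd3, minus strand, the part before the annotated gene), chr5:34187711-34187960 (Mxd4, minus strand), chr11:74830789-74830818 (Mnt, plus strand) and chr12:12941993-12942022 (Mycn, minus strand).
Mxd3: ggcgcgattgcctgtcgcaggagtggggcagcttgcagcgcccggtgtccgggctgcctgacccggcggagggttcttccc
Mxd4: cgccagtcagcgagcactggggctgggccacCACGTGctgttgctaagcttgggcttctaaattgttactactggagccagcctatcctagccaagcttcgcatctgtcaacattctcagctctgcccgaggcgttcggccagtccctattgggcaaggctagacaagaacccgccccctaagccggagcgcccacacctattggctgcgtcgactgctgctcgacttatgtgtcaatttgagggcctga
Mnt: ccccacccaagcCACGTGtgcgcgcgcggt
Mycn: gctTTTGGCGCGAAAggcTTTGGCGCctcc
The E-box began 219 bases before the start in Mxd4 and 123 bases before it in Mnt. The start used for Mnt lies inside the annotated gene, so the Mnt stretch runs across the first bases of that gene. The Mycn stretch holds 3 E2F-type matches, at 183, 179 and 168 bases before the start, the first 2 of which overlap on opposite strands. The E-box genes did not share a direction, since most Mxd4 probe sets were lower in value and those of Mnt higher. A match of letters does not show that a factor binds there.

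Other genes of the pathway were read from 8 lists, in which 131 of 143 genes were measured by their brightest kept probe set. Of these 4 rose and 9 fell, against 8.49% and 7.09% of all 12320 genes called higher and lower. The measured genes include Eif2a, which was read in place of the listed Eif2s1, a different gene. Of 10 measured cell cycle targets of Myc 4 fell and 0 rose, and 5 were lower and 5 higher in value (median -0.02, all genes 0.09). The phosphatase gene Cdc25a, which starts Cdk activity, fell by 1.92 ± 0.26 (adjusted p = 0.0109). E2f2, a factor of S-phase entry, fell by 2.24 ± 0.55 (0.0372), the Cdk subunit gene Cks2 by 1.69 ± 0.31 (0.0165) and cyclin E1 gene Ccne1 by 0.85 ± 0.20 (0.0307). The second kept probe set of each also fell. Ccnd2 differed by 0.80 ± 0.27 (adjusted p = 0.0896), and 1 of its 6 other kept probe sets passed as higher. Id2 differed by 0.80 ± 0.24 (0.0621).

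Of 35 measured ribosome biogenesis targets 0 rose and 0 fell in limma, with a median of 0.08, and 1 higher and 2 lower had an unadjusted p under 0.05. Within the BioB sets the median was -0.24 in the first and 0.34 in the second, so its direction was not shared. Each of these medians rests on a single array of 1 group. The nucleolin gene Ncl read 13.14, 12.94 and 12.88 with PBS and 12.74, 13.06 and 13.01 with mD1R. The smallest p-values were those of Polr1a, of RNA polymerase I (-0.73 ± 0.21, adjusted p = 0.0619), and its activator gene Ubtf (-0.51 ± 0.20, 0.134). Of 8 translation targets, counting Eif2a for the listed Eif2s1, 0 rose and 0 fell by their brightest probe set (median 0.02). By that probe set 0 had an unadjusted p under 0.05, and Eif1a (0.82 ± 0.36) and Eif3b (0.34 ± 0.19) came nearest. Eif4e had 3 other kept probe sets, with changes of 0.42 to 1.32, of which 1 passed as higher.

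The 27 metabolic targets had a median of 0.04, with -0.26 and 0.21 within the first and second BioB sets. Of the 27, 3 rose and 0 fell. They were both chains of an amino acid transporter, Slc3a2 (1.30 ± 0.18, adjusted p = 0.0112) and Slc7a5 (0.96 ± 0.23, 0.0324), and the mitochondrial chaperonin gene Hspe1 (0.96 ± 0.21, 0.0275). The other kept probe set of Hspe1 differed by 0.95 and did not pass. The polyamine enzyme gene Odc1, a classic target, differed by -0.07 ± 0.33. Slc2a1 differed by 1.41 ± 0.39 (adjusted p = 0.0538), and 1 of its 2 other kept probe sets passed as higher. Among 12 genes that Myc is known to repress 1 rose and 1 fell, and 5 were lower and 7 higher in value. Their median of 0.65 lay between 0.04 and 0.79 in the alternatives. An unadjusted p under 0.05 was reached by 4 higher and 3 lower. The Cdk inhibitor gene Cdkn1a rose by 1.65 ± 0.34 (adjusted p = 0.0234), and Cdkn1b, another such inhibitor, fell by 1.42 ± 0.36 (0.0407). The other kept probe set of Cdkn1a passed as higher, and that of Cdkn1b differed by -0.98 and did not pass. Btg2 differed by -2.27 ± 0.63 (0.0532), and its 1 other kept probe set passed as lower.

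Of 16 genes of Myc protein turnover 4 fell and 0 rose (median 0.07). Cip2a, which shields Myc from the phosphatase PP2A, fell by 2.27 ± 0.22 (adjusted p = 0.00961). The mitotic kinase genes Aurka and Plk1, whose products are known to stabilise Myc family proteins, fell, with changes of -1.95 ± 0.28 (0.0113) and -1.85 ± 0.39 (0.0240). Ppp2r5a, a PP2A subunit gene, fell by 1.06 ± 0.23 (0.0263). Fbxw7, whose ubiquitin ligase degrades Myc, differed by 0.32 ± 0.17 (0.265). Aurka and Plk1 are also genes of dividing cells, whose markers were lower as given above.

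Among 20 coactivators and corepressors 0 rose and 0 fell in limma (median -0.11), and 4 lower had an unadjusted p under 0.05. The acetyltransferase gene Kat5 differed by -0.67 ± 0.19 (adjusted p = 0.0533) and Hcfc1 by -0.50 ± 0.17 (0.0957). The corepressor gene Sin3a, through which Mxd proteins act, differed by -0.65 ± 0.24 (0.118). In the parallel branch of Mlx, a second shared partner, and Mga, 3 of 4 genes were measured, 0 passed and 1 higher had an unadjusted p under 0.05. Mga differed by 0.67 ± 0.28 (0.152) and Mlx by -0.38 ± 0.19 (0.216).

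**Figure D5:**
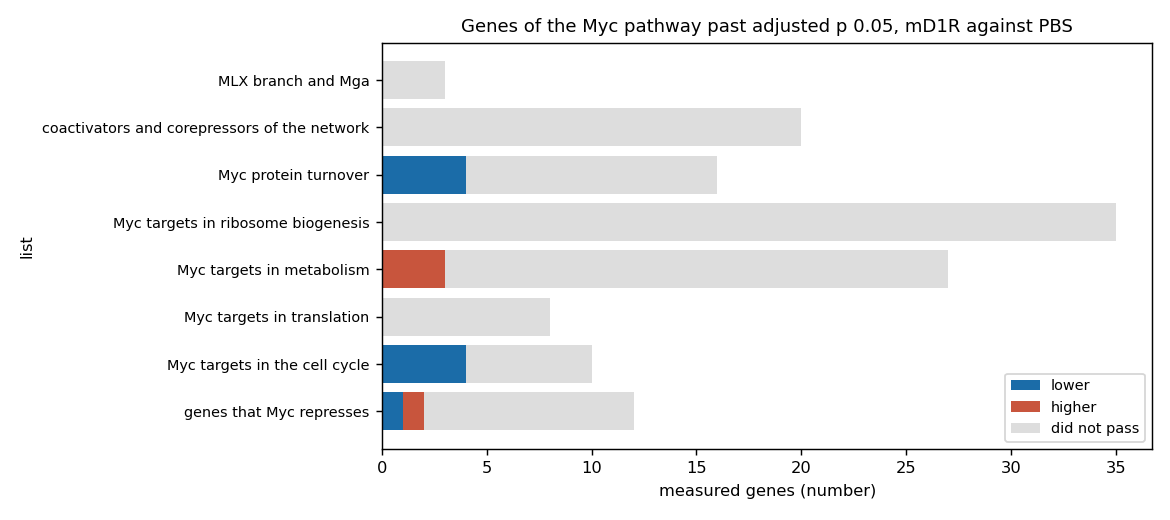
Number of measured genes (horizontal axis) in each of the 8 pathway lists (vertical axis) that were lower, higher or did not pass at an adjusted p of 0.05. The falls lie in the lists of turnover, cell cycle targets and repressed genes, and 0 of 35 ribosome biogenesis genes passed.

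All 13 pathway calls were lost without PBS replicate 3. Of these, 4 (Cip2a, Aurka, Slc3a2 and Cdc25a) were lost in no other setting, and 9 were lost in 2 to 7 of the 16 settings. Leaving out PBS replicates 1 and 2 and mD1R replicates 1 and 2 ended 7, 8, 6 and 9 calls. Directions of the 13 did not change in these settings.

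Markers of the gate and of other cells describe the samples. Of 5 measured gate genes 0 rose and 0 fell by their brightest probe set. Kit differed by 1.35 ± 0.49 (SE, adjusted p = 0.108). It read 9.97, 8.85 and 9.21 with PBS and 11.37, 11.13 and 9.58 with mD1R, so array 3 lay within the PBS range. The leukocyte gene Ptprc differed by -0.34 ± 0.21 (0.327), while a second Ptprc probe set fell by 1.89 and passed. The lineage genes Itgam, Cd3e and Cd8a differed by -0.33 ± 0.22 (0.367), -1.41 ± 0.59 (0.152) and -0.40 ± 0.53 (0.656). Itgam read 11.56 to 12.31 over the 6 arrays. Ly6a, which encodes Sca-1, was not analysed here. Of 10 mast cell markers 8 rose and 0 fell, and their mean log2 signal was 8.03, 7.19 and 7.54 with PBS and 10.69, 11.33 and 10.10 with mD1R. Of 6 monocyte and macrophage markers 6 rose, and of 8 lymphoid markers 6 fell and 1 rose. Of 3 erythroid markers 1 fell, and of 3 endothelial markers 1 rose. The part of these cells in the network's values was not tested.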

How the data were processed

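The authors deposited log2 signals of 45101 probe sets on 6 arrays, made with MAS5 per the submitters' processing notes, with no version given. On the linear scale each array had a 2% trimmed mean of 500.0. Values under 1 were listed as log2 0 (239 to 422 per array). Detection calls were not analysed here. MAS5 subtracts mismatch signal, which makes low values noisy. The annotation gave 34945 probe sets 1 symbol, 932 several and 9160 none, leaving aside 64 controls.

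The 3 mD1R arrays were tested against the 3 PBS arrays by a two-sided moderated test (lmFit, then eBayes allowing a variance trend; limma 3.58.1, R 4.3.3). Errors of changes are standard errors of that fit, with a median of 0.31. Precision is limited by the number of arrays, and an exact permutation test of 3 against 3 arrays cannot go below 0.1. Genes in lists were represented by their brightest kept probe set. All member probe sets were named, and per list up to 4 called genes with the smallest p (otherwise 2), with markers. Ncl, Odc1, Fbxw7, Sin3a, Mki67, Mpo, Ptprc, Itgam, Cd8a, Eif4e, Eif2a, Slc2a1, Ccnd2, Id2 and Btg2 were named after their values were seen. The members and lists were chosen with earlier results of these data known.

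Same-numbered arrays had correlations of deviations from the group means of 0.31, 0.03 and 0.13, and differently numbered arrays of -0.22 to 0.15. These values do not settle whether the numbers are pairs, and the main test did not take them as pairs. Alternatives varied the array scaling, pseudocount, filter, variance model, weights of arrays, blocks and which array was left out.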

Additional observations from a re-analysis of the deposited data

How the results depend on the processing

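The 17 kept member probe sets kept their direction in all 16 alternatives in which they were tested. Over all alternatives the median change of the network lay between -1.01 and -0.61. The count of lower network probe sets, 3 as reported, was 8 with array weights, and the count of higher ones, 0 as reported, was 2 with the spike-in set as a block. Leaving out 1 array gave 0 to 9 lower and 0 to 0 higher. Over all kept probe sets, 1756 lower and 1657 higher became 3396 and 3112 with array weights and 1136 and 1077 with no variance trend, and leaving out 1 array gave 0 to 3031 and 0 to 2523. Among pathway genes, 9 lower and 4 higher became 17 and 10 with array weights and 5 and 2 with no variance trend, and leaving out 1 array gave 0 to 17 and 0 to 7. The array correlations did not settle whether the replicate numbers are pairs. As a block, the replicate number gave 7 lower network probe sets (Max, 3 of Mxd1 and 3 of Mxd3) and 8 higher pathway genes. The cause of these moves was not tested. Median centring, quantile normalization, the filters, the pseudocount and a robust trend left each of these counts within 1.5 times its value. Of the genes named outside the network and followed over the alternatives, Ncl and Odc1, neither of them called, changed sign. Among those not followed were Eif4e, Eif2a, Slc2a1, Ccnd2, Id2 and Btg2. Ncl was 0.036 with array weights and -0.11 to 0.052 when 1 array was left out, and Odc1 was -0.36 to 0.19 when 1 array was left out. Low signals, above all those of Mycl, limit what can be said of genes near the filter.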
